A study of Mus musculus with 4 samples.

Results

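The calcium/calmodulin-dependent protein kinases examined here were 9 genes: the CaM kinase II subunits Camk2a, Camk2b, Camk2d and Camk2g, the inhibitors Camk2n1 and Camk2n2, and the related kinases Camk1, Camk4 and Camkk2. They were picked by name out of 19937 genes that a probe set of the array named alone. Where a gene had several probe sets, the one with the highest mean over the 4 arrays stood for it. Each of the 9 genes had 1 probe set, so this choice changed no value here, and a probe set gives 1 value per gene, so splice forms of a subunit were not told apart. All 9 lay above the filter on dim genes and were tested.

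The cells were primary neurospheres grown with FGF2 and EGF from the lateral ventricle walls of C57BL/6 mice aged 9 to 12 weeks. Neurospheres are free-floating clusters that hold neural stem cells and their progeny. Every sample, the controls included, received non-targeting control siRNAs and, after 4 h, a 5 h exposure to a virus that delivers the neurogenic transcription factor Pax6. It then spent 36 h in suspension and 10 h on laminin without growth factors. The DMSO group (2 arrays) was kept in 0.01% DMSO from the time of the virus on. The olaparib group (2 arrays) was given 100 nM olaparib, which blocks PARP1 and PARP2, enzymes that signal DNA breaks, in that same DMSO. The sources used here do not give the share of cells that took up the virus, and viral and endogenous Pax6 RNA were not told apart. The design asks how transcript levels respond when PARP is inhibited from the virus exposure through the first 10 h of neuronal differentiation.

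CaM kinase II is a holoenzyme of many subunits, and each subunit carries a kinase domain that an autoinhibitory segment holds inactive. Calcium-loaded calmodulin displaces that segment, and neighbouring subunits then phosphorylate one another, which keeps the enzyme active after calcium has fallen. The alpha and beta subunits are known chiefly from neurons, where beta also binds actin, while gamma and delta are made in most tissues. CaM kinase kinase phosphorylates CaM kinases I and IV and AMP-activated kinase, and CaM kinase IV is a nuclear kinase of the factor CREB.

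Array medians lay between 6.60 and 6.68 on the log2 scale. Across all genes tested the spread within a group, as a median SD, was 0.048 for DMSO but 0.077 for olaparib. Arrays of 1 group are biological replicates per the labels, which do not say whether they came from separate animals. The spread seen is therefore that between these arrays, and their small number limits the precision. The limma p-values combine this spread with a variance estimate shared across genes, the prior, worth 18.1 degrees of freedom. That prior outweighs the own spread of every gene tested, Camk2a and Camk2b included. Among 33 genes of tissues unrelated to brain the median level was 6.44, the 75th percentile 6.58, and the highest levels were 7.77 for Apoa2 and 7.10 for Gcg. Of the 9 CaM kinase genes, 5 had a dimmer group under 7.77 and 0 had one under 6.58.

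With olaparib, Camk2b rose and Camk2a fell, and the other 7 genes did not pass the test. By limma, 1 of 9 was higher, against 2.84% of the 13956 genes tested, and 1 of 9 was lower, against 3.37%. The genes were grouped with the values of Camk2a and Camk2b already known, so nothing is read from these shares. Each change is a log2 value, the olaparib mean minus the DMSO mean, and a gene passed at a Benjamini-Hochberg adjusted p under 0.05 over all genes tested. The median change of the 9 genes was -0.05, with 3 positive and 6 negative values, beside a median of 0.0013 over all genes tested. Both olaparib arrays lay above both DMSO arrays in 1 of the 9 genes, against 23.2% of all genes tested, and below them in 3 of 9, against 23.9%. The groups therefore did not overlap in 4 of 9, against 47.1%.

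Camk2a, the alpha subunit (probe set 10456021), read 7.34 and 7.14 on the DMSO arrays and 6.79 and 6.63 on the olaparib arrays. Both olaparib values lay below both DMSO values. The fall was 0.53 on the log2 scale (SE 0.09, adjusted p = 0.000600 in limma), from 7.24 ± 0.14 to 6.71 ± 0.12 (SD, n = 2 each), which makes DMSO 1.45-fold higher. Of the genes tested, 101, Camk2a among them, had a change at least this low. Both the DMSO mean of 7.24 and the olaparib mean of 6.71 lie between the 75th percentile and the highest level of the unrelated-tissue genes. The size of the fall is therefore less certain than its direction. The change was -0.43 without DMSO replicate 1 and -0.63 without DMSO replicate 2. It passed in 14 of 15 alternative settings. The exception was the fit in which the variance estimate was shared by the 21704 probe sets, named or not, that pass the same filter (adjusted p = 0.0957). Several settings leave the log2 change as it was and alter at most the variance estimate or the adjustment, so they are not independent checks.

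Camk2b, the beta subunit (probe set 10384064), read 8.45 and 8.49 with DMSO and 8.76 and 9.03 with olaparib. The groups did not overlap, and olaparib replicate 2 stood higher than olaparib replicate 1 by more than the change of any of the 7 genes that did not pass. The rise was 0.42 (SE 0.11, adjusted p = 0.0227 in limma), from 8.47 ± 0.03 to 8.90 ± 0.19 (SD, n = 2 each), a 1.34-fold change. Of the genes tested, 181, Camk2b among them, had a change at least this high. It came to 0.29 when olaparib replicate 2 was left out and to 0.56 when replicate 1 was. The call was lost without DMSO replicate 1 (adjusted p = 0.351), without DMSO replicate 2 (adjusted p = 0.219), under median centring (adjusted p = 0.0825) and in the fit over all probe sets (adjusted p = 0.196), while the change stayed between 0.29 and 0.56 over its 15 alternatives.

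Camk2g, the gamma subunit, read 8.06 and 8.14 with DMSO and 7.79 and 8.05 with olaparib. The olaparib values were both lower, but replicate 2 missed the DMSO range by little. The difference of -0.18 did not pass (95% interval -0.38 to 0.03, adjusted p = 0.355 in limma). It was -0.30 and passed without olaparib replicate 2 (adjusted p = 0.0261), and was -0.05 without olaparib replicate 1. Camk2d, the delta subunit, read 8.24 and 8.33 with DMSO and 8.18 and 8.26 with olaparib, and these ranges overlapped. Its difference was -0.07 (95% interval -0.27 to 0.13, adjusted p = 0.798). The interval of each leaves room for a change of either sign.

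**Figure D1:**
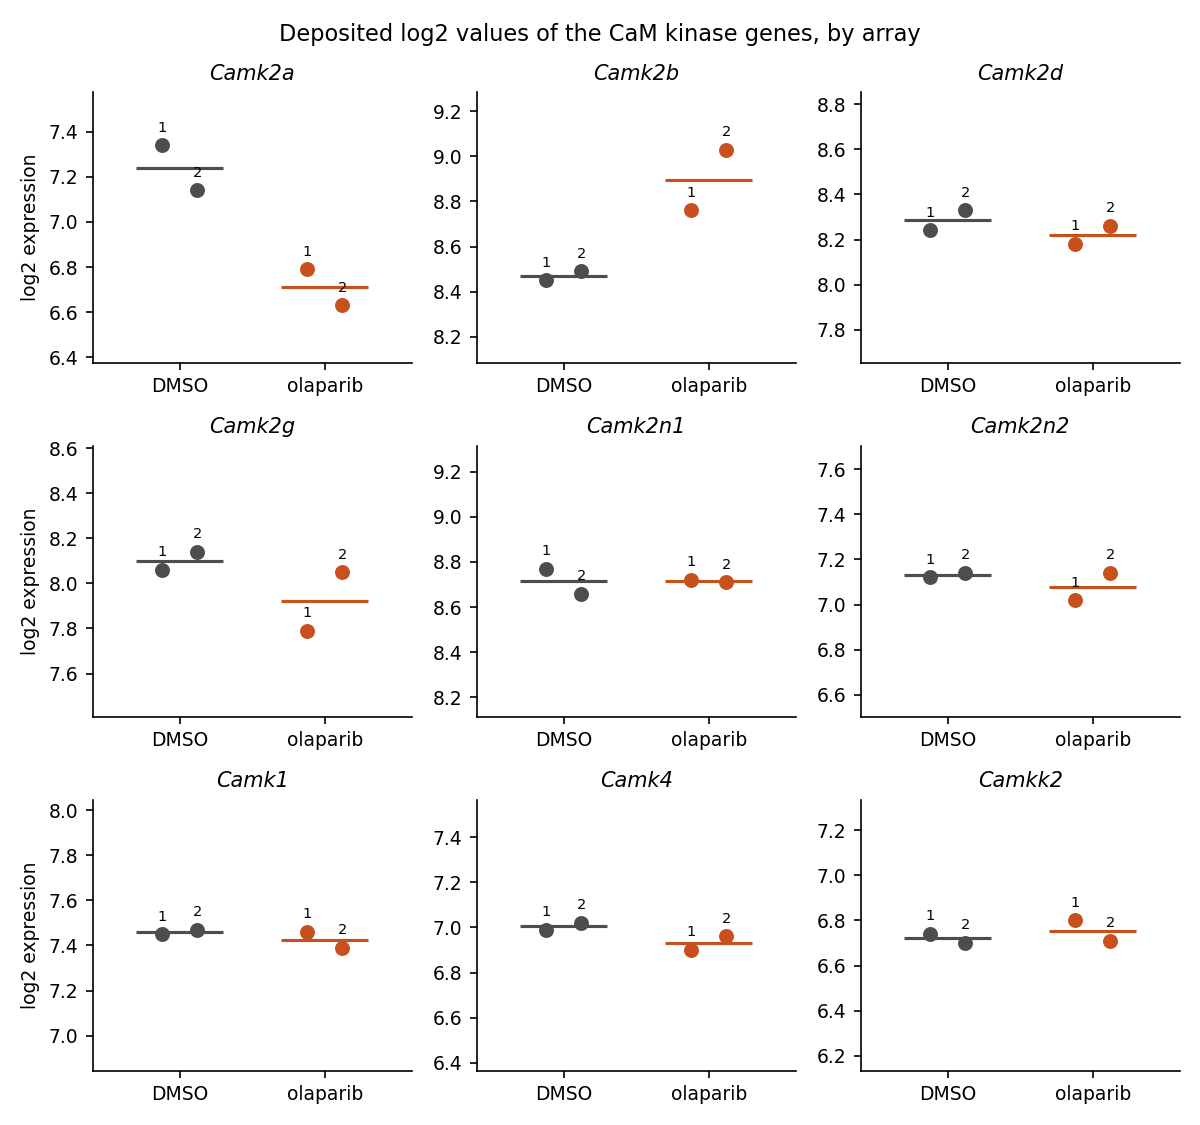
Deposited log2 expression (y axis) of the 9 CaM kinase genes on each array, with the group on the x axis, points numbered by replicate and a bar at the group mean; every panel spans the same log2 range. The olaparib points of Camk2a (6.79 and 6.63) lie below and those of Camk2b (8.76 and 9.03) above the DMSO points, while the groups overlap in 5 of the 9 panels.

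The alpha and beta subunits can be set against each other within an array, which removes any shift common to the whole array. The Camk2b value minus the Camk2a value was 1.11 and 1.35 on the DMSO arrays and 1.97 and 2.41 on the olaparib arrays. It was larger on both olaparib arrays, by 0.96 on average. That size is the rise of Camk2b and the fall of Camk2a added together, so it describes the same changes and is no further result. As a signal ratio it is 1.94-fold. That value rests on Camk2a at 7.24 with DMSO and 6.71 with olaparib, both within the range of the unrelated-tissue genes. An exact two-sided permutation test over the 4 arrays gave p = 0.333, the smallest value that 2 against 2 arrays allow, and can tell nothing apart. The ratio of Camk2g to Camk2b signal was 1.52-fold lower with olaparib, and that of Camk2d to Camk2b signal 1.41-fold lower. Camk2g and Camk2d themselves kept closer to each other, with a difference between them of -0.19 and -0.20 on the DMSO arrays and -0.39 and -0.21 on the olaparib arrays. The exact permutation p was 0.333 in each of the 6 pairs of subunits, also after adjustment over the 6. A ratio within an array shows unequal change between probe sets and gives no ratio of protein or of molecules.

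RefSeq promoter windows for GRCm38.p6 run from 250 bases before to 50 after a gene's start. Those of 5 of the 9 genes were examined: Camk2b, Camk2d, Camk2n2, Camk1 and Camkk2. Windows of the other members, Camk2a among them, are not reported here. The windows of Camk2b, the subunit gene that rose, and of Camk2d, a subunit gene that did not pass, are shown side by side, with GC boxes (GGGCGG on either strand, matches may overlap) in capitals. Camk2b lies at chr11:6065699-6065998 on the minus strand and Camk2d at chr3:126596701-126597000 on the plus strand, and both are written 5′ to 3′ along the gene.
Camk2b: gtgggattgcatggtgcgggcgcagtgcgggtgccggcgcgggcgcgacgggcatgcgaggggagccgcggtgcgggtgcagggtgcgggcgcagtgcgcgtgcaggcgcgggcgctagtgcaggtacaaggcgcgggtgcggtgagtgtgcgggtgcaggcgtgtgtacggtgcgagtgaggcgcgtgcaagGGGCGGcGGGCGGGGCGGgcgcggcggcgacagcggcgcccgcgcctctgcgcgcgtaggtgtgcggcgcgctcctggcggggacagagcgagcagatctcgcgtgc
Camk2d: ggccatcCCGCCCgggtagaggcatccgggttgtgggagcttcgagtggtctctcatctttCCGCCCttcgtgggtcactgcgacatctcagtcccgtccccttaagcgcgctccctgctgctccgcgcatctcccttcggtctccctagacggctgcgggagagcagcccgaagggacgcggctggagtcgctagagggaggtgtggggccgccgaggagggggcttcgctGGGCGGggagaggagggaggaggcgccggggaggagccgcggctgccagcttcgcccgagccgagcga
Both windows are rich in G and C, at 77.3% for Camk2b and 70.3% for Camk2d, beside a median of 52.7% over all 32851 windows of 300 bases. The dinucleotide CG occurs 51 times in the Camk2b window and 31 times in that of Camk2d, with a median of 7 over all windows. Each holds 3 GC boxes, which 35.7% of all windows hold at least once. Neither holds a TATA box (TATAAA, found in 13.6% of windows) or a CRE core (TGACG, with which the full CREB site TGACGTCA begins, found in 20.8%), on either strand. The windows of Camk1 and Camk2n2 hold 1 CRE core each. These matches describe the letters of the windows only.

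The inhibitors of CaM kinase II did not pass the test. Camk2n1 encodes an inhibitor protein that binds the active kinase, and read 8.77 and 8.66 with DMSO and 8.72 and 8.71 with olaparib. The olaparib values fell inside the DMSO range, and the difference was 0.0032 (95% interval -0.21 to 0.22, adjusted p = 0.997 in limma). Its sign turned under quantile normalization, cyclic loess and when DMSO replicate 2 or olaparib replicate 1 was left out. Camk2n2, its relative, read 7.12 and 7.14 with DMSO and 7.02 and 7.14 with olaparib. Its difference was -0.05 (95% interval -0.21 to 0.11, adjusted p = 0.831), and it was 0.01 without olaparib replicate 1.

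Of the related kinases, Camkk2, the activating kinase upstream, read 6.74 and 6.70 with DMSO and 6.80 and 6.71 with olaparib, a difference of 0.04 (95% interval -0.13 to 0.20, adjusted p = 0.883 in limma). Camk1, a cytosolic kinase that this enzyme activates, read 7.45 and 7.47 with DMSO and 7.46 and 7.39 with olaparib, a difference of -0.03 (95% interval -0.20 to 0.13, adjusted p = 0.904). In both genes the groups overlapped. Camk4, the nuclear kinase, read 6.99 and 7.02 with DMSO and 6.90 and 6.96 with olaparib. Both olaparib values were lower, but the difference of -0.07 did not pass (95% interval -0.23 to 0.09, adjusted p = 0.709). Camk4 is also made in T cells, and the 8 lymphocyte markers on the array ran up to 6.55 for Cd3e. Both these markers and Camk4 itself lay within the range of the unrelated-tissue genes, and the source of the Camk4 signal was not tested. In the main fit the intervals of the 5 inhibitor and related kinase genes all lie between -0.23 and 0.22. The changes measured for Camk2a and Camk2b fall outside each of them. These intervals rest on the variance prior of that fit. Camk2n2, Camk1, Camk4 and Camkk2 lie within the range of the unrelated-tissue genes, where background can shrink a measured change, so a larger change of RNA is not excluded for them.

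**Figure D2:**
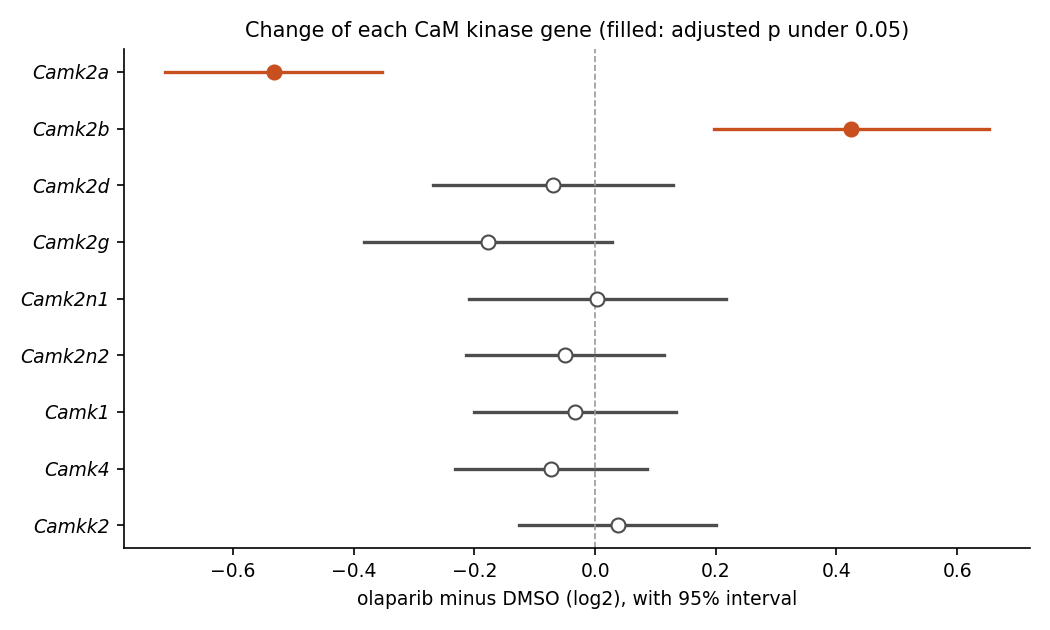
Change of each CaM kinase gene, olaparib minus DMSO on the log2 scale (x axis), with its 95% interval from limma; filled points passed an adjusted p of 0.05. Camk2a (-0.53) and Camk2b (0.42) lie on opposite sides of 0, and the intervals of the other 7 genes include 0.

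Leaving out 1 array changed the call on Camk2b and on Camk2g but not that on Camk2a, as the plot of the 15 settings shows.

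**Figure D3:**
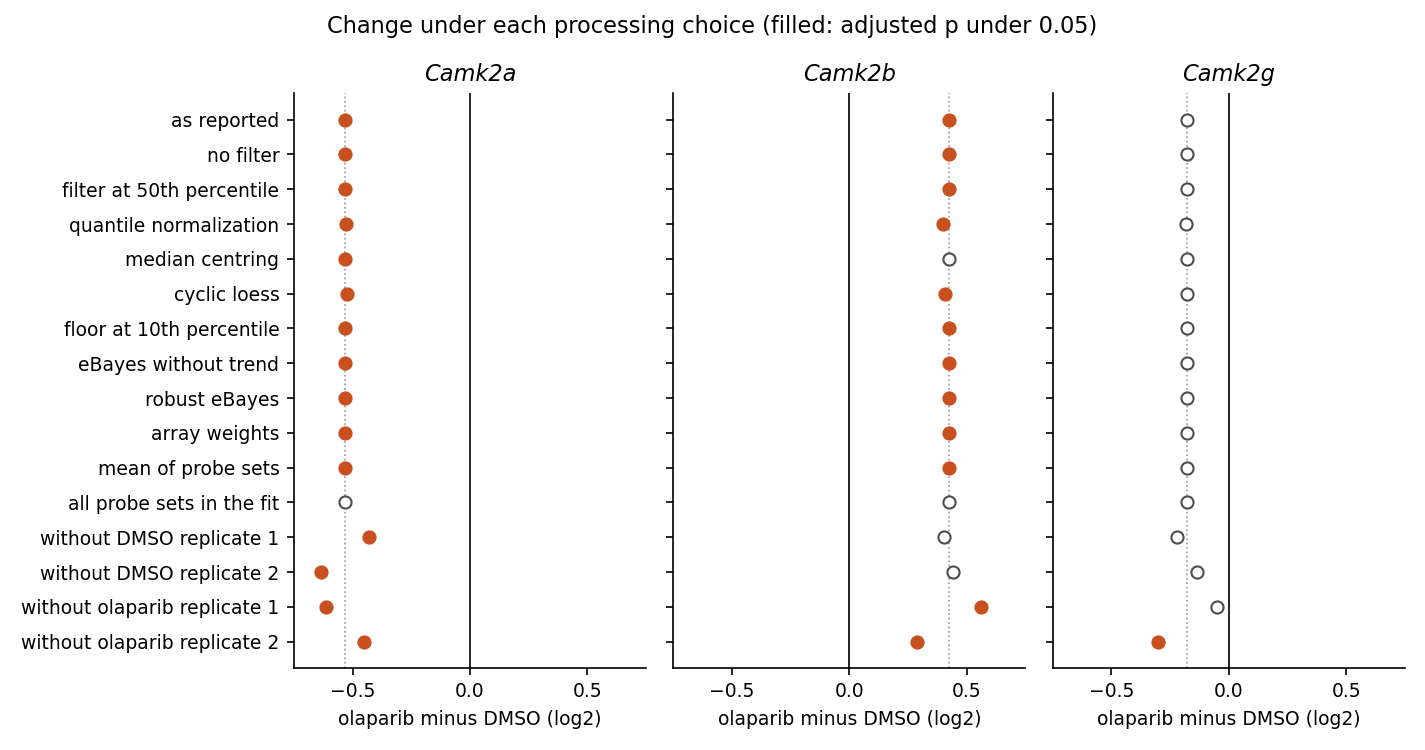
Change of Camk2a, Camk2b and Camk2g (x axis, olaparib minus DMSO, log2) as reported and under each of 15 processing choices (y axis); filled points passed an adjusted p of 0.05, and the dotted line marks the reported value. Camk2a stays between -0.63 and -0.43, Camk2b between 0.29 and 0.56, and Camk2g passes only without olaparib replicate 2.

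The genes whose 4 values lay closest to those of Camk2a, by Euclidean distance after each gene's own mean was subtracted, were Nt5dc2, Dab2, Myt1, Islr and Olfm3, at distances of 0.06 to 0.12 on the log2 scale. Myt1 is a zinc finger factor of neuronal commitment, Dab2 an endocytic adaptor and Olfm3 a secreted olfactomedin protein. Myt1 read 7.46 and 7.33 with DMSO and 6.89 and 6.67 with olaparib. Those closest to Camk2b were Rrs1, C1qbp, Ddit3, Ifitm2 and Pagr1a, at distances of 0.04 to 0.05. Rrs1 is a ribosome assembly factor and Ddit3 the stress-induced factor CHOP. Ddit3 read 7.89 and 7.99 with DMSO and 8.21 and 8.48 with olaparib. Dab2 and Ifitm2 have further probe sets, and the mean over them differed by -0.26 for Dab2 and 0.37 for Ifitm2. These genes were chosen for likeness over only 4 arrays, so their changes carry no test.

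Around the kinases, 140 genes of calcium and calmodulin signalling were listed, 133 were on the array and 123 were tested. In limma 4 rose and 6 fell, and 113 did not pass. The share called was 8.13%, beside 6.22% of all genes tested. In the fit over all probe sets 0 of these 10 passed (adjusted p = 0.0565 to 0.232). There 10 had an unadjusted p under 0.05, but they were picked for a small p on the same arrays, so nothing is read from that count. Pcp4l1 and Slc8a1 passed with any 1 array left out. The other 8 calls were each lost in at least 1 such fit. The counts were 2 higher and 1 lower without DMSO replicate 1, 1 and 1 without DMSO replicate 2, 16 and 9 without olaparib replicate 1, and 3 and 14 without olaparib replicate 2. In 7 of the 10 the dimmer group lay under 7.77, the highest level of the unrelated-tissue genes.

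Of 17 other kinases of this kind tested, among them the DAP, myosin light chain and doublecortin-like kinases, 0 passed in limma and 4 had an unadjusted p under 0.05. Camk1g, a CaM kinase I isoform, read 7.49 on both DMSO arrays and 7.63 and 7.87 with olaparib. Its difference of 0.26 did not pass (95% interval 0.07 to 0.45, adjusted p = 0.102), although it did without olaparib replicate 1 (adjusted p = 0.00260). Camk1d differed by 0.07 (adjusted p = 0.718) and Pnck, another CaM kinase I isoform, by 0.06 (adjusted p = 0.782). Camkv, a kinase-like protein, lay below the filter, at 6.31 to 6.36 on the 4 arrays.

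Of 17 genes of calmodulin and calcium-binding proteins tested, 1 rose and 0 fell. Pcp4l1, a relative of the calmodulin-binding protein PEP-19, read 7.77 and 7.66 with DMSO and 8.35 and 8.32 with olaparib. It rose by 0.63 (SE 0.09, adjusted p = 0.000223 in limma). The calmodulin gene Calm2 read 11.97 and 11.93 with DMSO and 12.11 and 12.16 with olaparib, a difference of 0.18 that did not pass (95% interval -0.06 to 0.43, adjusted p = 0.452). Calm3 differed by 0.00077 (adjusted p = 0.999), a value whose sign turned under quantile normalization and cyclic loess. Of 17 phosphatase genes, 0 rose and 1 fell. That was Ppm1e, a phosphatase that removes the activating phosphate from CaM kinases, at 7.37 and 7.35 with DMSO and 6.95 and 7.08 with olaparib. It fell by 0.34 (SE 0.08, adjusted p = 0.0124), and the call was lost without DMSO replicate 1 (adjusted p = 0.127) and without DMSO replicate 2 (adjusted p = 0.0867). Ppm1f, its relative, differed by -0.02 (adjusted p = 0.937), with a sign that turned without DMSO replicate 1 and without olaparib replicate 1.

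Of 44 genes of kinase targets and anchoring proteins tested, 2 rose and 3 fell. Map2, a dendritic microtubule protein that CaM kinase II phosphorylates, read 10.53 and 10.66 with DMSO and 9.91 and 10.19 with olaparib, and fell by 0.55 (SE 0.13, adjusted p = 0.0115 in limma). Stmn1, a tubulin-binding protein, fell by 0.45 (adjusted p = 0.0305). Hdac9, a class II histone deacetylase, fell by 0.33 (adjusted p = 0.0490). Prkaa2, a catalytic subunit of AMP-activated kinase and so of a target of Camkk2, read 7.07 and 7.02 with DMSO and 7.33 and 7.48 with olaparib, and rose by 0.37 (SE 0.08, adjusted p = 0.00916). Fos, an immediate early gene that CREB induces, rose by 0.34 (adjusted p = 0.0116). Leaving out either of the DMSO arrays ended the calls on Map2, Stmn1, Hdac9 and Fos. The largest adjusted p among the 15 alternatives was 0.317 for Map2, 0.438 for Stmn1, 0.499 for Hdac9 and 0.161 for Fos. Hdac9 was lost without olaparib replicate 1 too, and Prkaa2 without DMSO replicate 2 (adjusted p = 0.109).

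Of 28 genes of calcium entry, release and clearance tested, 1 rose and 2 fell. Both that fell encode sodium-calcium exchangers, which pump calcium out of the cell. Slc8a1 read 7.31 and 7.40 with DMSO and 6.76 and 6.63 with olaparib, and fell by 0.66 (SE 0.08, adjusted p = 3.76e-05 in limma). These values come from the brighter of 2 probe sets, and the mean of both fell by 0.40 (adjusted p = 0.00306). Slc8a2 read 6.92 and 7.01 with DMSO and 6.62 and 6.63 with olaparib, and fell by 0.34 (adjusted p = 0.0103). Itpr2, a calcium release channel of the endoplasmic reticulum, rose by 0.31 (adjusted p = 0.0355). Leaving out either of the DMSO arrays ended the calls on Slc8a2 and Itpr2, whose largest adjusted p among the 15 alternatives was 0.270 and 0.407, and Itpr2 was lost without olaparib replicate 2 too.

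**Figure D4:**
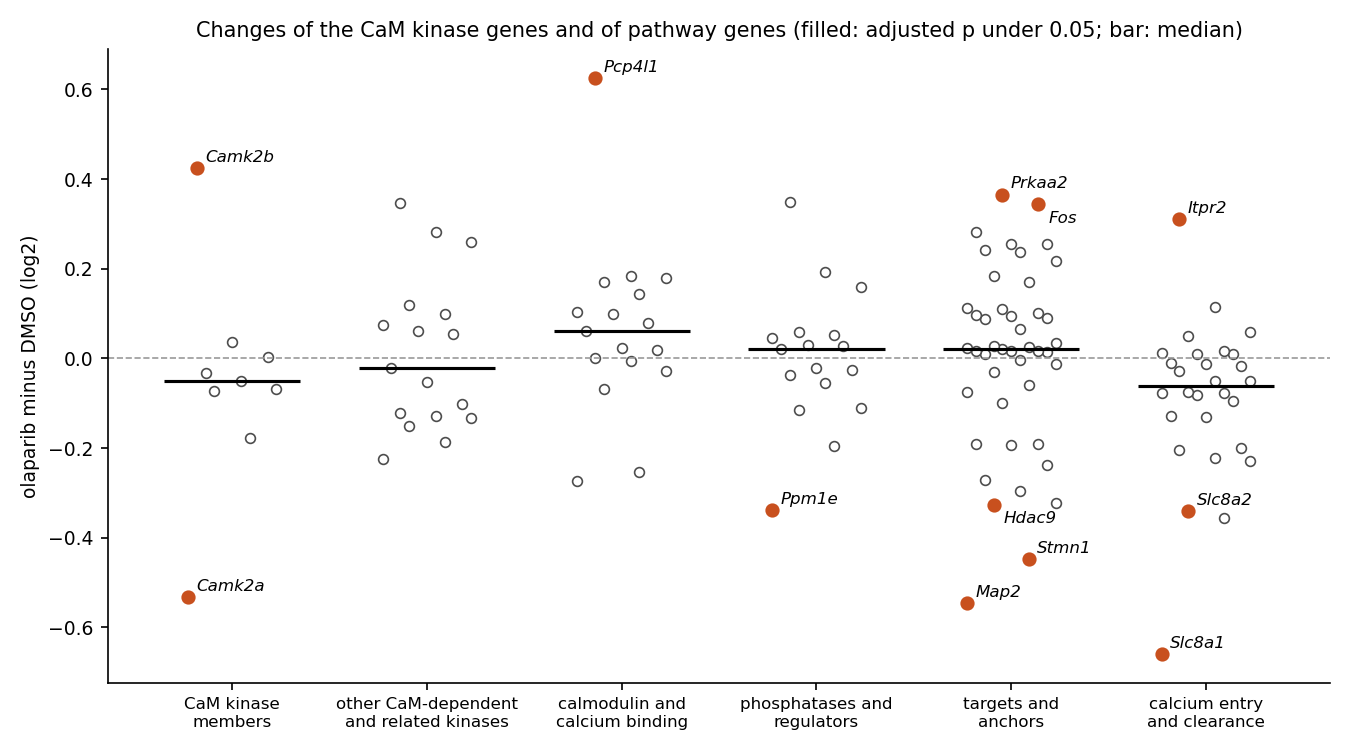
Change of every tested gene (y axis, olaparib minus DMSO, log2) among the CaM kinase genes and in 5 lists of calcium and calmodulin signalling (x axis); filled points passed an adjusted p of 0.05 and black bars mark list medians. The medians lie between -0.06 and 0.06, and the named genes are the 12 that passed.

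Markers of cell types moved beside these changes. Of 18 neuronal markers tested, 2 rose and 7 fell, beside 6.22% called of all genes tested. The median change was -0.08, with 7 positive and 11 negative values. Dcx fell by 1.05 and Gad2 by 0.67, and Map2 stands in this list too. The 2 that rose, named after their values were seen, were the neurofilament gene Nefm by 0.69 and the growth cone gene Gap43 by 0.57. The mean level of the neuronal markers on the array was 7.59 and 7.57 with DMSO and 7.38 and 7.46 with olaparib. With 1 DMSO array left out, 4 fell and 1 rose. Stmn2 and Slc17a6 of this list lay below the filter. Of 8 astrocyte markers tested, 0 rose and 3 fell, with 2 lower without DMSO replicate 1. The median change of the astrocyte markers was -0.23, with 1 positive and 7 negative values, and 37.5% were called. Gfap fell by 1.03 and Aqp4 by 0.71, but neither passed in the fit over all probe sets. The mean level of the astrocyte markers on the array was 9.27 and 9.25 with DMSO and 8.92 and 9.08 with olaparib. The part of these shifts in the changes of Camk2a and Camk2b was not tested. In such mixed cultures fewer cells of a type and less RNA per cell cannot be told apart. Markers of microglia (6 tested), vascular cells (4) and lymphocytes (2) had 0 calls in limma. At an unadjusted p under 0.05 there were 1 microglial, 0 vascular and 0 lymphocyte genes.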

How the data were processed

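Total RNA (40 ng per sample) was amplified, biotin-labelled and hybridised to an Affymetrix mouse gene array for each sample, as the labels' protocols state. The deposited table holds the authors' log2 values, 1 per probe set and array. Background correction, normalization and probe summary are not given in the sources used here, nor are batches. Of 34760 probe sets, 21640 named 1 gene, 1321 several and 11799 none. Each gene took its brightest probe set, and 19918 of 19937 genes matched a RefSeq entry (GRCm38.p6).

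The 13956 genes whose mean exceeded the 30th percentile (log2 6.42) were tested two-sided in limma 3.58.1 (R 4.3.3), using lmFit and eBayes with a mean-variance trend, and Benjamini-Hochberg adjustment over all of them; 95% intervals came from the same fit. All adjusted p are limma's. No pairing was used. The members and lists were chosen with earlier results of these data known. Named are the 9 members, a fixed set of pathway genes (not all are reported here) and pathway genes past the threshold. Also named are up to 2 markers per list by smallest p and 5 genes most like Camk2a and Camk2b. Nefm and Gap43 were added after their values were seen, and some further genes are named for their level alone. Figures used matplotlib 3.10.9 under Python 3.11.15.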

Additional observations from a re-analysis of the deposited data

How the results depend on the processing

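The 15 alternatives covered the filter, scaling, floor, variance prior, array weights, probe sets and each array left out. Of 134 repeated values of the 9 members, 121 kept their direction and side of the threshold. Camkk2 had no value at the 50th percentile filter, which it did not reach. The filters, the floor and the mean of probe sets left the log2 changes of the members as they were, so the repeats are not independent checks. With all probe sets in the fit, Camk2a (-0.53) and Camk2b (0.42) did not pass, 0 members were higher and 0 lower, with 2 at an unadjusted p under 0.05, 1 gene was higher and 11 lower of all tested, and 0 pathway genes were higher and 0 lower. The log2 changes are the same there, but the prior is worth 5.25 degrees of freedom, not 18.1, and more rows are adjusted over. Under median centring Camk2b (0.42) did not pass, which left 0 members higher. Without a filter 257 genes were higher. Under quantile normalization 779 genes were lower, 12 of them in the pathway lists, and under cyclic loess 732 and 11. Camk2n1 turned to -0.021 and -0.016 under these 2 settings, and Calm3 to -0.086 and -0.074. The cause of these shifts was not tested.

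With each array left out in turn, the change ran from -0.63 to -0.43 for Camk2a, 0.29 to 0.56 for Camk2b, -0.30 to -0.052 for Camk2g, -0.053 to 0.059 for Camk2n1, -0.11 to 0.013 for Camk2n2, -0.068 to 0.0012 for Camk1, -0.011 to 0.085 for Camkk2, -0.032 to 0.033 for Calm3 and -0.068 to 0.024 for Ppm1f. Members higher ran from 0 to 1 and lower from 1 to 2, all genes from 97 to 1274 higher and 161 to 1032 lower, and pathway genes from 1 to 16 higher and 1 to 14 lower. A group left with 1 array is assumed to vary like the other. The Camk2b minus Camk2a difference ran from 0.74 to 1.18. No paired analysis was possible because no label ties a DMSO array to an olaparib array; replicates 1 and 2 are numbered by deposit order, which pairs nothing. Background correction could not be repeated from log2 values, and dim genes are limited by signal over background.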

Other observations

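Genes of stem and progenitor cells and of the oligodendrocyte lineage were measured on the same arrays. The share called in limma was 15.4% of the stem and progenitor markers and 12.5% of the oligodendrocyte markers, beside 6.22% of all genes tested. The median change of the stem and progenitor markers was -0.16, with 2 positive and 11 negative values. For the oligodendrocyte markers it was 0.10, with 6 positive and 2 negative values. Of 13 stem and progenitor markers tested, 0 rose and 2 fell, Id3, an inhibitor of basic helix-loop-helix factors, by 0.65 (adjusted p = 0.00172 in limma) and the receptor gene Notch1 by 0.38 (adjusted p = 0.0381). The count of falls was 0 when either DMSO array was left out and 6 without olaparib replicate 2, and it was 6 under quantile normalization and under cyclic loess. It was 1 without a filter and under median centring. Of 8 oligodendrocyte markers tested, 1 rose, the proteoglycan gene Cspg4 of precursors, by 0.33 (adjusted p = 0.0122), and 0 rose when either DMSO array was left out. When olaparib replicate 1 was left out 2 rose and 2 fell, and when replicate 2 was left out 2 rose and 0 fell.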
